A study of Solanum lycopersicum with 3 samples.

Results

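Salicylic acid-binding protein 2 (SABP2) is an esterase, first purified from tobacco, that removes the methyl group from methyl salicylate and so returns salicylic acid, the hormone of defence against biotrophic pathogens. It belongs to the methylesterase (MES) family of α/β-hydrolases. The opposite step, the methylation of salicylic acid, is made by salicylic acid carboxyl methyltransferases, and methyl salicylate is a volatile of tomato flavour. Salicylic acid itself is built from chorismate, either through isochorismate synthase or through phenylalanine ammonia-lyase (PAL), and it acts through NPR1-type receptors and TGA transcription factors on genes for pathogenesis-related (PR) proteins.

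The tomato array described here carried 2 probes of interest, SGN-U216160 and SGN-U216162, both described in the array files as tobacco salicylic acid-binding protein 2. They were chosen by name with their ratios of Lycb-1 over wild type (WT) in view. Those ratios are therefore given as a description, with no test. They were 2 of 11863 gene probes on the array, and both were among the 5720 probes with enough signal on all 3 arrays. The one remaining probe of that description, SGN-U216161, was not chosen and was used for comparison. The array files give 1 Arabidopsis locus as the nearest for each probe: AT2G23590 for SGN-U216160, AT2G23580 for SGN-U216162 and AT3G50440 for SGN-U216161, all of the MES family.

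Lycb-1 fruit came from progeny of 1 transformant carrying the citrus lycopene β-cyclase gene Lycb-1 behind the constitutive CaMV 35S promoter, together with the kanamycin resistance gene nptII. WT fruit was of the untransformed cultivar Zhongshu No. 5. Ripe fruit of both genotypes was compared on 3 TOM2 long-oligo arrays, each with 1 pool of several fruits from 3 plants per genotype. Lycb-1 cDNA carried Cy5 and WT cDNA carried Cy3 on each array, and the dyes were exchanged on 0 arrays. What a dye does to a single probe, what is particular to the line and what the transgene does cannot be told apart. Seeds had been removed from the fruit. In such a tissue of many cell types, fewer cells of a type and less RNA per cell cannot be told apart either.

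The nptII probe (X57709) had a mean log2 ratio of 6.80 ± 1.17 and the tomato lycopene β-cyclase probe SGN-U221920 one of 3.08 ± 0.23 (SD, n = 3 arrays; limma, adjusted p = 0.045 for each). Whether SGN-U221920 also binds the citrus transcript was not tested. For both, the adjusted p was 0.056 with the authors' ratio, 0.193 with no filter on dim spots, 0.532 without replicate 1 and 0.453 by the methods' t-test. For SGN-U221920 it was also 0.0837 without replicate 2 and 0.0740 without replicate 3. Of 21 probes for ripe fruit markers, 18 had at least 400 intensity units in both channels on all arrays, against 5 of 16 probes for the RuBisCO small subunit of green tissue. The other 3 ripe fruit probes, SGN-U212804, SGN-U240682 and SGN-U212797, were all described as E8, as were bright probes such as SGN-U212799. The 18 include SGN-U216046 and SGN-U217693, described as E4/E8 binding protein-1 and found by the word E8. Several ripening markers were brighter in Lycb-1 fruit. Polygalacturonase-2 (SGN-U213213, median of 11 spots) had 57832 to 85127 units there over the arrays, against 6053 to 16582 units in WT fruit. SGN-U213993, a peptide methionine sulfoxide reductase, had 49953 to 85134 units, against 4029 to 10950 units. For phytoene synthase 1, M84744 had 65560 to 85135 units, against 20919 to 24223 units. SGN-U212843 had 37301 to 51395 against 13898 to 21500 units, and SGN-U232158 had 30137 to 38401 against 11116 to 18617 units. Only for its probe SGN-U212834 did the ranges overlap, at 18264 to 22885 and 15478 to 22310 units. The highest Lycb-1 values of SGN-U213213, SGN-U213993 and M84744 lay close to the highest Cy5 value of the arrays, 85139 units. Saturation of these spots was not tested. Whether the pools of the genotypes differed in ripeness was not tested. Of the empty spots, all but the brightest 1% gave no more than 34 units.

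Both SABP2 probes were higher in Lycb-1 fruit on every array. SGN-U216162 had 18301, 10536 and 3957 units in Lycb-1 fruit on the arrays of replicates 1, 2 and 3, against 2990, 2391 and 1874 units in WT fruit. The lowest Lycb-1 value thus lay above the highest WT value, which held for 12.7% of the tested probes. After print-tip loess the log2 ratios of this probe were 2.38, 2.10 and 1.12, a mean of 1.86 ± 0.66 (SD, n = 3 arrays), or 3.64-fold.

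SGN-U216160 had 14908, 7791 and 2957 units in Lycb-1 fruit on the same arrays, against 2413, 1458 and 1073 units in WT fruit. Here too the values of the genotypes did not overlap. The normalised log2 ratios were 2.29, 2.53 and 1.44, a mean of 2.09 ± 0.57 (SD, n = 3 arrays), or 4.25-fold. All these signals stood well above the 400-unit limit, and the brightest of them was far below the highest Cy5 values of the arrays, which were 65560 to 85139 units.

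**Figure D1:**
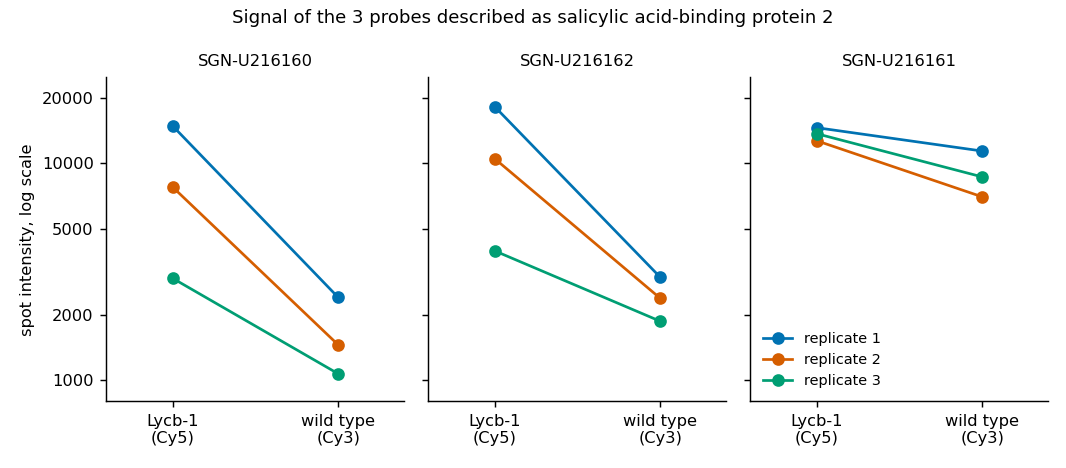
Spot intensity (log scale, background subtracted) of the 3 probes described as salicylic acid-binding protein 2, in Lycb-1 fruit (Cy5) and WT fruit (Cy3); each line joins the channels of 1 array. SGN-U216160 and SGN-U216162 were higher in Lycb-1 fruit on each array, with the shallowest line for replicate 3, where Lycb-1 fruit had 2957 and 3957 units; SGN-U216161 had 12733 to 14625 units in Lycb-1 fruit and 7018 to 11409 in WT fruit.

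The arrays of replicates 1 and 2 gave larger ratios than that of replicate 3 for both probes, and most of this spread lay in the Lycb-1 channel. Each signal was divided by the median of its channel over the tested probes, which ran from 1841 to 2152 units in Lycb-1 and from 1753 to 2119 units in WT. On this scale SGN-U216162 stood at 9.42, 5.72 and 1.84 times the median in Lycb-1 fruit, against 1.69, 1.36 and 0.884 times in WT fruit. The highest value was 5.12 times the lowest in Lycb-1 fruit and 1.91 times the lowest in WT fruit.

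SGN-U216160 stood at 7.67, 4.23 and 1.37 times the channel median in Lycb-1 fruit, against 1.36, 0.832 and 0.506 times in WT fruit. Its highest value was 5.58 times the lowest in Lycb-1 fruit and 2.69 times the lowest in WT fruit. In both genotypes and for both probes, the array of replicate 1 thus gave the highest scaled signal and that of replicate 3 the lowest. The lowest scaled Lycb-1 signal of SGN-U216160 and its highest scaled WT signal were close, at 1.37 and 1.36 times the median. Pools, labelling and hybridisation differed together between arrays, and their part in this spread was not tested.

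The probes were near the top of the ratios on each array. Ranked from the highest ratio of the 5720 tested probes, SGN-U216162 was at rank 23, 125 and 69 on the arrays of replicates 1, 2 and 3, and SGN-U216160 at rank 28, 78 and 34. On the array of replicate 3, 1.75% of the tested probes were at least 2-fold higher in Lycb-1 fruit, against 5.28% and 9.88% on those of replicates 1 and 2. Both probes were at least 2-fold higher on all 3 arrays, as were 34 of the 5720 probes, or 0.594%. Since the probes were chosen on this contrast, nothing is read from that share. By mean ratio SGN-U216160 was at rank 24 and SGN-U216162 at rank 34.

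**Figure D2:**
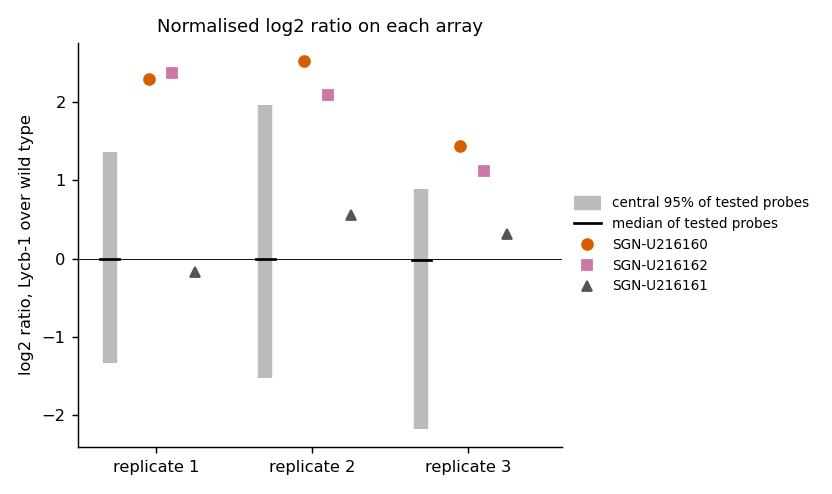
Normalised log2 ratio of Lycb-1 over WT on each array; grey bars span the central 95% of the 5720 tested probes, black lines are their medians and symbols are single probes. SGN-U216160 and SGN-U216162 lay above the grey bar on each array, with 2.29 and 2.38 for replicate 1, 2.53 and 2.10 for replicate 2, and 1.44 and 1.12 for replicate 3, while SGN-U216161 lay inside it.

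The ratios of the probes differed from each other by less than their spread between arrays. The log2 ratio of SGN-U216162 minus that of SGN-U216160 was 0.08, -0.43 and -0.33 on the arrays of replicates 1, 2 and 3, a mean of -0.22 ± 0.27 (SD, n = 3 arrays), with the sign of replicate 1 opposite to the others. Probes of like description may bind cDNA of the same genes. The oligonucleotide sequences were not used here, so the probes are not counted as independent measurements of 2 genes.

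The blocks that held the probes had median ratios near 0. SGN-U216160 was printed in block 27 and SGN-U216162 in block 31 of the 48 blocks of the array. Before normalisation the medians of the checked spots were 0.07, -0.01 and 0.04 on the log2 scale in block 27, and 0.06, -0.06 and 0.06 in block 31. The measured log2 ratios were 2.63, 2.42 and 1.46 for SGN-U216160 and 2.61, 2.14 and 1.08 for SGN-U216162. Of the spots next to them, 2 and 5 were checked, and the mean log2 ratios of these neighbours ran from -0.49 to 0.33 and from -0.90 to 0.35. The highest neighbour ratio on a single array was 1.04 beside SGN-U216160 and 0.52 beside SGN-U216162, both on the log2 scale.

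SGN-U216161, the third SABP2 probe, had 14625, 12733 and 13721 units in Lycb-1 fruit on the arrays of replicates 1, 2 and 3, against 11409, 7018 and 8670 units in WT fruit. The measured values did not overlap, but the normalised log2 ratios took both signs, at -0.17, 0.56 and 0.32. The mean was 0.24 ± 0.37 (SD, n = 3 arrays), and limma gave an adjusted p of 0.637. Median centring in place of loess gave 0.68 with an adjusted p of 0.195, and over all alternatives the mean was 0.07 to 0.68 with adjusted p values of 0.195 to 0.942. Median centring also moved the median of all tested probes by 0.16 on the log2 scale.

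On every array the ratio of the chosen probes was above that of SGN-U216161. The difference in log2 ratio was 2.47, 1.96 and 1.13 for SGN-U216160 on the arrays of replicates 1, 2 and 3, a mean of 1.85 ± 0.68, and 2.55, 1.53 and 0.80 for SGN-U216162, a mean of 1.63 ± 0.88 (SD, n = 3 arrays). The choice of the 2 probes on their ratios fixes this direction. A search of the array files for 19 loci of the Arabidopsis MES family, made after the values were seen, found 5 probes. Besides the 3 SABP2 probes these were SGN-U225278 (MKS1, a methylketone synthase known from the trichomes of a wild tomato) and SGN-U221530 (MES17, which in Arabidopsis acts on the methyl ester of the auxin indole-3-acetic acid). Both were below 400 units in each channel on all arrays. MES17 had 18, 9 and 24 units in Lycb-1 fruit, against 70, 57 and 129 units in WT fruit, and MKS1 had 4, 8 and 7 units in Lycb-1 fruit, against 21, -38 and 8 units in WT fruit.

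The probes whose log2 ratios on the 3 arrays were most like those of the SABP2 probes included all those for histidine decarboxylase (HDC, TOM92), an enzyme named for making histamine from histidine. Among the 5 nearest probes with a description, HDC probes were 4 for SGN-U216160 and 3 for SGN-U216162. Likeness was measured as the Euclidean distance between the log2 ratios over the 3 arrays. All 5 HDC probes on the array were tested, and all 5 lay within a distance of 1 of each chosen SABP2 probe. Of the tested probes, 16 or 0.280% lay within that distance of SGN-U216160, and 18 or 0.315% within that distance of SGN-U216162. The median distance over all tested probes was 3.78 to SGN-U216160 and 3.44 to SGN-U216162. The SABP2 probes were chosen with these same ratios in view. Their large distance from most probes follows from that choice, since only probes with high ratios could lie near them. Nothing is read from these shares.

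The nearest to SGN-U216160 was HDC SGN-U212615 at a distance of 0.222, with log2 ratios of 2.45, 2.61 and 1.58. Then came HDC SGN-U212595 at 0.449, HDC SGN-U212591 at 0.458, SGN-U216162 at 0.545 and HDC SGN-U212594 at 0.555. The nearest to SGN-U216162 was HDC SGN-U212591 at a distance of 0.179, with log2 ratios of 2.26, 2.23 and 1.10. It was followed by HDC SGN-U212592 at 0.377, SGN-U216160 at 0.545, HDC SGN-U212594 at 0.551 and SGN-U220524, described as a seed specific protein of Brassica napus, at 0.629. Like the chosen SABP2 probes, the HDC probes had their lowest ratio on the array of replicate 3. The third SABP2 probe was at a distance of 3.35 from SGN-U216160 and 3.08 from SGN-U216162. The 3 arrays give few values for such a comparison, and it is a description over replicates of 1 contrast.

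**Figure D3:**
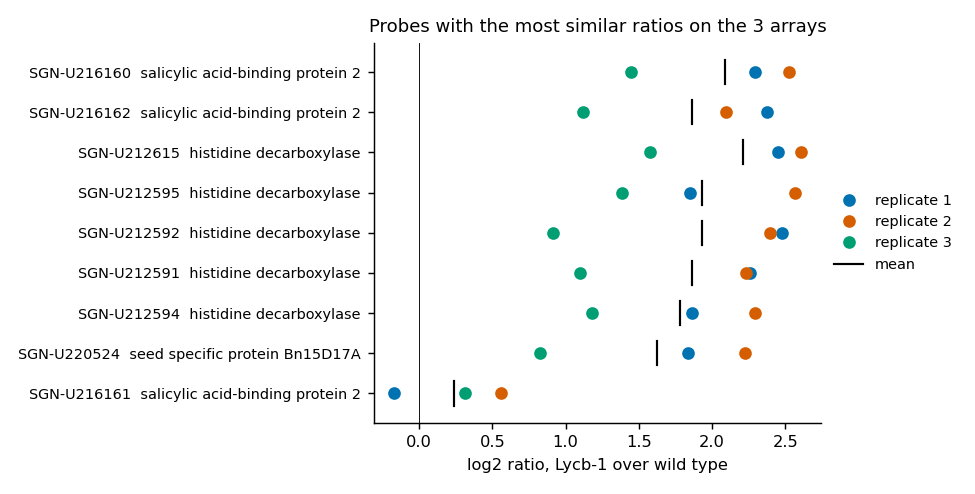
Log2 ratio of Lycb-1 over WT on each array (points) and its mean (black lines) for the 2 chosen SABP2 probes, the described probes with the most similar ratios, and the third SABP2 probe SGN-U216161. The chosen SABP2 probes and the HDC probes share a low value for replicate 3 and higher values for replicates 1 and 2, and SGN-U216161, with a mean of 0.24, lies apart.

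The 2 tested probes described as α/β-fold hydrolases had ratios below 0 on every array, though neither passed the test. Of 6 further esterase relatives on the array, SGN-U216161 included, 3 were tested and 0 passed limma's test in either direction, where 3 of all tested probes or 0.0524% did, 0.035% higher and 0.0175% lower in Lycb-1 fruit. SGN-U234475, described as an α/β-hydrolase, had log2 ratios of -1.32, -0.82 and -1.65, a mean of -1.26 ± 0.42 (adjusted p = 0.180). SGN-U219268, of the same nearest Arabidopsis locus, had a mean of -0.45 ± 0.30 (adjusted p = 0.374). That locus, AT1G73480, was not among the MES loci searched, and both probes joined the list by the words of their descriptions. The median of the 3 tested relatives was -0.45, beside -0.01 for all tested probes. Where both channels had to reach 400 units, SGN-U234475 dropped out and the 2 left had a median of -0.11.

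Of 17 probes found by words for the synthesis of salicylate and its methyl ester, 6 were tested (5 for PAL and 1 for chorismate synthase), 0 passed, and the median was -0.47. The ratios of 5 of these 6 took both signs over the arrays, as did those of 58.3% of all tested probes. Their list medians were -0.51, 1.02 and -2.13 on the arrays of replicates 1, 2 and 3, and without replicate 3 the median was 0.28, without replicate 2 -1.36. The spread lay in 4 of the 5 tested probes for PAL, the entry enzyme of phenylpropanoid synthesis, all 4 with the same nearest Arabidopsis locus. SGN-U232239 had log2 ratios of -0.72, 2.56 and -3.40 (mean -0.52 ± 2.99, adjusted p = 0.847), and SGN-U212957 had -0.88, 1.27 and -2.84 (mean -0.81 ± 2.06, adjusted p = 0.637). SGN-U217684 and SGN-U212959 were likewise highest for replicate 2 and lowest for replicate 3. The fifth PAL probe, SGN-U230487, had -0.12, -0.70 and -0.55, a mean of -0.46 ± 0.30 (adjusted p = 0.368). The 2 chosen SABP2 probes were higher in Lycb-1 fruit on the arrays of both replicate 2 and replicate 3. Their choice on these ratios fixes that direction, so nothing is read from the contrast.

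The probes for isochorismate synthase, which makes isochorismate from chorismate, and for the methyltransferases of salicylic acid gave almost no signal. The isochorismate synthase probe SGN-U235718 had at most 14 units in any channel. The salicylic acid carboxyl methyltransferase probes SGN-U231313, SGN-U215638 and SGN-U235912 had at most 91, 65 and 16 units, and were not tested. A salicylate-induced glucosyltransferase, SGN-U222680, had 371, 240 and 2381 units in Lycb-1 fruit, against 302, 457 and 723 units in WT fruit, and was under the signal limit on the array of replicate 1. In all, 9 probes name salicylic acid or salicylate in their description and 4 of them were tested. Of the 2 for salicylic acid-induced protein 19, SGN-U237458 had a mean log2 ratio of -0.43 ± 0.27 (SD, n = 3 arrays; limma, adjusted p = 0.375), and SGN-U219491 had at most 8 units.

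Of 16 salicylate signalling probes, 6 were tested and 0 passed, with a median log2 ratio of -0.35, which became 0.040 with no filter on dim spots. After normalisation 4 of them were lower and 1 was higher in Lycb-1 fruit on all 3 arrays, where 21.3% and 20.4% of all tested probes were. Among the 4, SGT1 (SGN-U214954) had log2 ratios of -1.09, -0.16 and -0.09. Its measured signals were slightly higher in Lycb-1 fruit for replicate 2 (10614 against 10248 units) and replicate 3 (9767 against 9724 units). PAD4 (SGN-U222324), a lipase-like protein that in Arabidopsis acts with EDS1 upstream of salicylic acid, had log2 ratios of -0.92, -1.22 and -0.60, a mean of -0.92 ± 0.31 (adjusted p = 0.228). NIM1-like 2 (SGN-U229275), a relative of the receptor NPR1, had -0.14, 1.21 and 0.42, a mean of 0.50 ± 0.68 (adjusted p = 0.467). Both EDS1 probes were below 400 units in each channel.

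The 3 tested probes of the salicylate-response list had normalised log2 ratios below 0. The tested ones were osmotin-like probes and P69D, and whether these answer to salicylic acid in this fruit was not tested. Of 8 probes, 3 were tested and 0 passed. After normalisation all 3 were lower in Lycb-1 fruit on every array. The median was -1.05 (-2.02 with no filter on dim spots and -0.68 without replicate 2). The brightest, the osmotin-like SGN-U212927, had log2 ratios of -1.05, -1.55 and -0.26, a mean of -0.95 ± 0.65 (limma, adjusted p = 0.276). On the array of replicate 3 its measured signal was 21567 units in Lycb-1 fruit, against 20819 units in WT fruit. P69D (SGN-U214665), a subtilisin-like protease of the P69 family, not all members of which are induced by pathogens, had log2 ratios of -3.16, -2.55 and -0.60, a mean of -2.11 ± 1.34 (adjusted p = 0.237). The osmotin-like SGN-U213934, of the PR-5 family, had -1.03, -1.78 and -0.33, a mean of -1.05 ± 0.73 (adjusted p = 0.272). As with the 2 chosen SABP2 probes, the ratios of P69D and SGN-U213934 were nearest to 0 on the array of replicate 3. In Lycb-1 fruit P69D had only 96 units for replicate 1, and SGN-U213934 had 188 and 319 units for replicates 2 and 3.

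PR-1 probes, the usual readout of salicylic acid, were under the signal limit on the array of replicate 1 and so were not tested. PR1 and PR-1A1 were under it on the array of replicate 2 as well. None was dim on every array. PR1 (SGN-U213451) had 3, 0 and 38 units in Lycb-1 fruit on the arrays of replicates 1, 2 and 3, against 5, 47 and 1027 units in WT fruit. PR-1A1 (SGN-U214259) had 31, 32 and 48 units in Lycb-1 fruit, against 34, 279 and 1378 units in WT fruit. P6 (SGN-U212922) is another PR-1 type protein, also described as ethylene-induced protein P1. It had 95, 210 and 90 units in Lycb-1 fruit, against 299, 726 and 1247 units in WT fruit. In WT fruit each of these was brightest on the array of replicate 3. That array had the lowest signals of SGN-U216160 and SGN-U216162 in both genotypes. In Lycb-1 fruit, however, P6 was lowest on the array of replicate 3, at 90 units. PR1 and PR-1A1 were highest on it in Lycb-1 fruit too, but at only 38 and 48 units. The PR-1 probes were named after their values were seen, and a relation to SGN-U216160 and SGN-U216162 was not tested.

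Over the 4 salicylate lists, limma's unadjusted p was under 0.05 for 1 of 3 esterase relatives, 0 of 6 synthesis probes, 1 of 6 signalling probes and 3 of 3 response markers, where 15.4% of all tested probes were, and the methods' t-test called 0 after adjustment, with 1, 0, 2 and 0 unadjusted. The count of response markers was 0 without replicate 1 and 1 without replicate 2. Where each channel had to reach 400 units it was 1, and the osmotin-like SGN-U212927 was the only marker left. The count of synthesis probes was 4 without replicate 2. The p-values rest on 3 pools a genotype, and their number limits the precision.

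**Figure D4:**
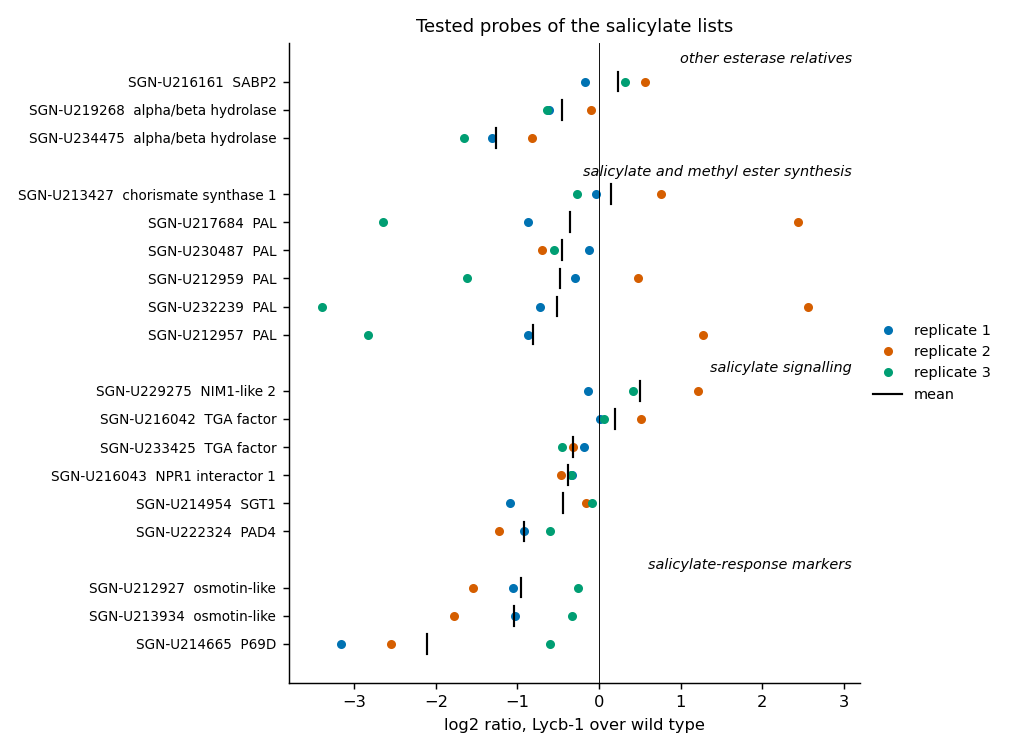
Log2 ratio of Lycb-1 over WT on each array (points) and its mean (black lines) for every tested probe of the 4 salicylate lists. Of the 5 PAL probes, 4 were highest for replicate 2 and lowest for replicate 3 while SGN-U230487 stayed between -0.70 and -0.12, the 3 response markers lie below 0 on each array, and 0 probes passed limma's test.

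Under the other normalisations and the offset the mean log2 ratio was 1.74 to 1.99 for SGN-U216162 and 2.01 to 2.24 for SGN-U216160. With 1 array left out it was 1.61 to 2.24 for SGN-U216162 and 1.87 to 2.41 for SGN-U216160. The authors' own print-tip ratio, as deposited, was 5.57, 4.75 and 2.02 for SGN-U216162 and 4.85, 7.60 and 2.85 for SGN-U216160 on the arrays of replicates 1, 2 and 3. For SGN-U216160 on replicate 2, the deposited ratio of 7.60 lay above the measured ratio of 5.34 and the ratio of 5.76 after loess here.

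**Figure D5:**
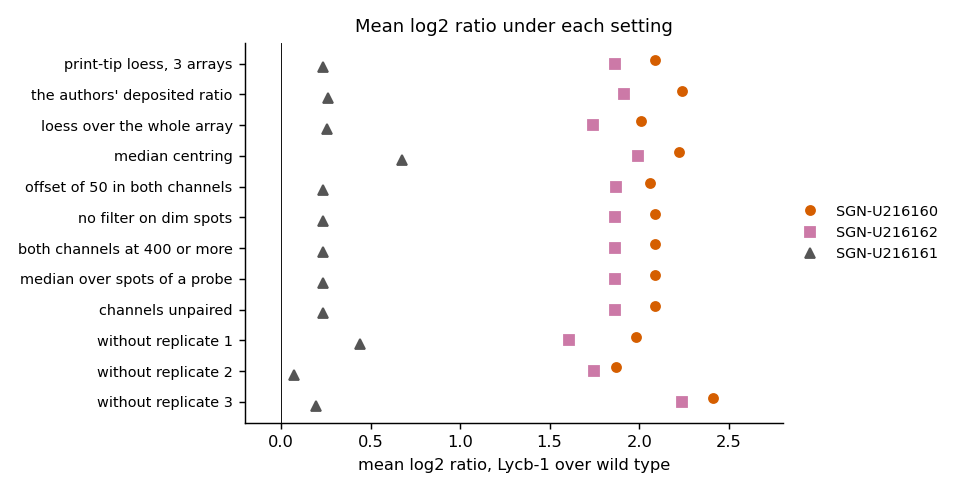
Mean log2 ratio of Lycb-1 over WT for the 3 SABP2 probes under print-tip loess and each alternative. Without replicate 3 the means of SGN-U216162 and SGN-U216160 were 2.24 and 2.41, the highest of each, and SGN-U216161 was highest, at 0.68, under median centring.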

How the data were processed

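Labelled cDNA of Lycb-1 (Cy5) and WT (Cy3) ripe fruit without seeds, made from amplified total RNA, was hybridised to 3 TOM2 arrays. The authors deposited spot intensity values with the background subtracted and not normalised between channels, and their ratio of Lycb-1 over WT after print-tip lowess (marray). A value table that the authors deposited holds log2 of the same ratio (largest difference found, 4.87e-09). Their lists of checked and differentially expressed spots were not used. Here values at or below 0 were left out and ratios were normalised by print-tip loess (limma 3.58.1, R 4.3.3; 48 blocks of 286 spots; control spots at weight 0). Spots with at least 400 units in the brighter channel on all 3 arrays were kept (5846 spots) and averaged by probe (5720 probes). The mean log2 ratio was tested against 0 with limma's lmFit and eBayes, two-sided, with Benjamini-Hochberg adjustment over these probes and a threshold of 0.05. The array pairs the pools of each replicate number. In simulated data of 5720 probes, 72% of probes with a log2 change of 2 were called and 8% with a change of 1. On the arrays themselves a mean log2 ratio of 2.09 was only at rank 24 from the highest, and 2 probes were called higher. Fewer large ratios were thus called than the simulation gives, so its percentages are not read as the power of these arrays. A list with 0 probes called is not read as unchanged.

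The probes and lists were chosen with earlier results of these data known. Lists were found by words in the descriptions, and 14, 4, 0 and 3 matches of other function were left out of the esterase, synthesis, signalling and response lists after their descriptions were read. The glucosyltransferase SGN-U222680, found by the word salicylate and not tested, stayed in the synthesis list though it is described only as induced by salicylate. The probes named are the chosen ones, all that name salicylic acid or salicylate, in each list the 2 whose mean was farthest from 0 and the 5 described probes nearest in ratio. MKS1, MES17, SGN-U219268, SGN-U217684, SGN-U212959, SGN-U230487, SGN-U214954, SGN-U212927, EDS1 and the PR-1 probes were named after their values were seen. Of the probe names, 0 matched the reference gene table, so the descriptions of the array files were kept. Alternatives covered the normalisation, an offset, the filter on dim spots, the spots of a probe, the pairing, each array left out and the test. Figures used Python 3.11.15 and matplotlib 3.10.9.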

Additional observations from a re-analysis of the deposited data

How the results depend on the processing

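Over 11 alternatives the mean log2 ratios of SGN-U216162 and SGN-U216160 and their difference (-0.38 to -0.12) moved by less than 1 SD between arrays. For these bright probes of 1 spot each, both filters and the median over spots could not change the value, and leaving out 1 of 3 arrays cannot move a mean by 1 SD, so only the normalisations and the offset bear on it (1.74 to 1.99 and 2.01 to 2.24). Without the pairing of channels on an array (no replicate block) the means stayed at 1.86 and 2.09 by construction, and 8 probes in all were called in place of 3. Other counts of called probes were 0 with the authors' ratio (901 at an unadjusted p under 0.05), 9 with loess over the whole array, 17 with median centring, 0 of 10259 with no filter on dim spots (1265 unadjusted), 1 with both channels at 400 or more, 0 without replicate 1, 1 without replicate 2 or 3, and 0 by the methods' t-test (613 unadjusted). Median centring put 3612 tested probes above 0 and 2108 below, where loess put 2810 above and 2910 below. The median of the esterase relatives was -0.11 with both channels at 400 or more, over the 2 probes left. That of the signalling probes was -0.39 with whole-array loess, -0.18 with median centring, 0.040 with no filter and -0.33 to -0.26 with 1 array left out. That of the response markers was -2.02 with no filter, and that of the synthesis probes was 0.28 without replicate 3, and -1.36 without replicate 2, against -0.47 with all arrays. The cause was not tested.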
